A study of Pseudotsuga menziesii with 66 samples.

Results

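Douglas-fir (Pseudotsuga menziesii) needles collected on 10 Mar 2011 were compared with needles of the same trees collected 15 days earlier, on 23 Feb 2011, at the end of winter. The libraries were chosen by collection date alone: 5 of 10 Mar (CCTO43, CCTO44, CCTO46, CCTO89 and CCTO90) and 4 of 23 Feb (all of these trees but CCTO90), 9 of the 66 libraries of the series. The trees were young plants of low-elevation Oregon Siskiyou seed grown in a nursery at Central Point, Oregon, near the climate of their origin. CCTO44 and CCTO90 came from the higher of 2 seed localities and the other trees from the lower one. No tree had received a treatment. Needles of the set formed in 2010 were taken near noon on every date, several per tree from all sides of the crown, and frozen. A library thus stands for 1 tree on 1 day, and the 5 trees are the replicates. Each date is a single day, so the season and the weather of that day cannot be told apart.

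Evergreen conifer needles pass the winter alive. As background, they lower photosynthesis in the cold, keep their chlorophyll while the absorbed light is released as heat, hold soluble sugars and protective proteins such as dehydrins, and restore photosynthesis in late winter and spring before new needles flush. Temperature, daylength and the daily clock are the cues known to govern that recovery. In these samples transcripts were followed by identifier, because the files do not pair the identifiers with gene names and no gene group, pathway or protein could be read. Whole needles were measured, so fewer cells of a type and less RNA per cell cannot be told apart. A CPM value, the count on a scale common to all libraries, is relative to the library's other transcripts and is not an amount per needle. Values given as TMM-scaled CPM also carry a scaling factor of the library, so they are not exact shares of its counts.

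Library totals were 14391009 to 37373284 counts on 10 Mar and 10951919 to 31476493 counts on 23 Feb, within the range of 9924771 to 37373284 over all 66 libraries. Where a transcript had 0 counts, its level could still be up to 3 counts, or 0.208 CPM in the smallest library of 10 Mar and 0.274 CPM in the smallest of 23 Feb. Such limits cover counting error only. The tests covered 60931 of 199471 transcripts, those not removed by a filter on low counts. After the mean of each date was taken out, each of the 9 libraries correlated best with the other dates of its own tree, as 64 of all 66 did.

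The needle transcriptome changed broadly within these 15 days. On 10 Mar 5374 transcripts were higher (8.82% of those tested) and 4957 lower (8.14%) than on 23 Feb, together 10331 or 17% (edgeR quasi-likelihood F test blocked by tree, Benjamini-Hochberg adjusted p under 0.05, 5 against 4 libraries). At an unadjusted p under 0.05 there were 18293 (30%). The median fitted change was 2.19-fold among the transcripts that rose and 2.11-fold among those that fell. The call favours large estimates, so sizes among called transcripts are a description. A change of at least 2-fold was reached by 3095 that rose and 2650 that fell, of at least 4-fold by 943 and 1125, and of at least 10-fold by 286 and 344. The quartiles of the log2 change were 0.769 and 1.67 for transcripts that rose and -1.9 and -0.668 for those that fell.

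The near balance of both directions holds for levels scaled by TMM, which centres most transcripts at no change (median log2 change of all tested 0.0026). With library totals alone and no scaling factors, the median moved to -0.326, and 2404 transcripts were called higher and 9382 lower, 20.4% of the calls against 52%. The split between higher and lower is therefore relative to the centre of all transcripts. The counts also varied with the trees in the fit: they were 3304 higher and 3033 lower without CCTO46, and 3407 and 2931 without CCTO90. The lower transcripts numbered 3171 without CCTO44, 3304 without CCTO89 and 3167 without the 10 Mar library of CCTO90 alone. Of those changed at least 2-fold, 1933 were higher and 1295 lower without CCTO90, and 1390 were lower without its 10 Mar library alone.

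**Figure D1:**
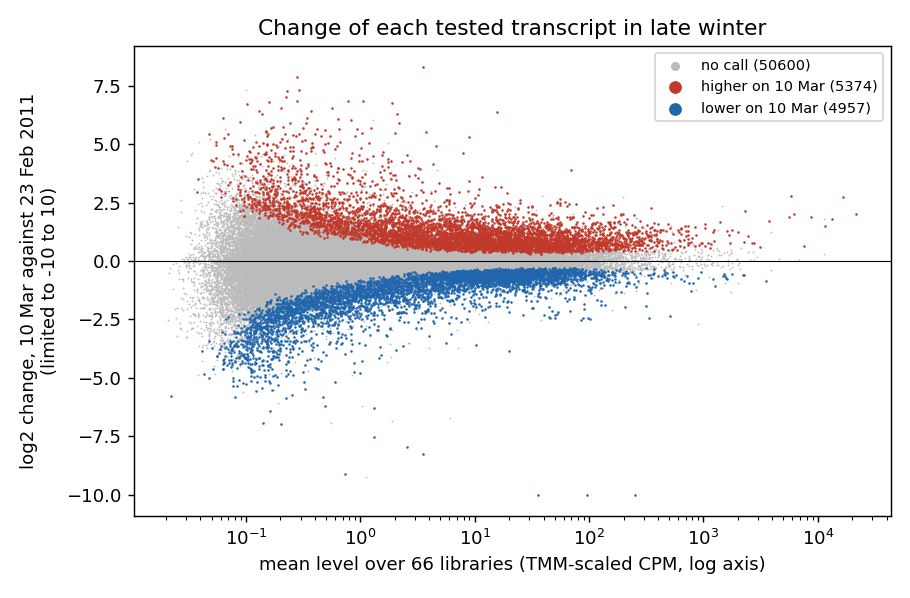
Log2 change on 10 Mar against 23 Feb 2011 (vertical axis, with 3 values beyond its lower end drawn at that end) against the mean level over 66 libraries in TMM-scaled CPM (horizontal log axis), 1 point per tested transcript, red for the 5374 called higher, blue for the 4957 called lower and grey for no call. Calls reach small changes at high levels and only large ones at low levels, and at the right edge red points outnumber blue ones.

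Abundant transcripts were called more often than rare ones, and most of their changes were rises. Among 1559 transcripts with a mean of at least 100 CPM, 451 rose and 159 fell, so that 39.1% were called and 73.9% of the calls were rises. Between 10 and 100 CPM, 34.8% of 10284 were called (1939 higher, 1638 lower). Between 1 and 10 CPM the share was 20.3% of 16906 (1893 higher, 1532 lower), and under 1 CPM it was 8.45% of 32182 (1091 higher, 1628 lower). The test finds smaller changes where counts are high, so these shares follow the depth as well as the level. Under 1 CPM 99.3% of the called transcripts had changed at least 2-fold, whereas between 10 and 100 CPM 25.2% had. CPM values are not adjusted for transcript length, and the classes mix length with level.

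The share of the libraries' counts held by these transcripts moved in the direction of the calls, though not by equal amounts. The 5374 that rose held 38.7%, 40.5%, 37.8%, 35.2% and 41.3% of the counts on 10 Mar (CCTO43, CCTO44, CCTO46, CCTO89 and CCTO90), against 22.6%, 24.1%, 21.3% and 20.3% on 23 Feb (the first 4 trees in that order). The 4957 that fell held 7.31%, 6.38%, 6.71%, 7.69% and 5.65% on 10 Mar, against 13%, 12.8%, 14% and 15.3% on 23 Feb. Tested transcripts without a call held 52.8% to 56.9% on 10 Mar and 62.8% to 64.4% on 23 Feb, so their share was lower on 10 Mar as well. The dates do not overlap in any of these shares, which describes the calls and does not test them, since the same libraries chose the transcripts. In the libraries of the neighbouring dates, which took no direct part in the contrast, the transcripts that rose held 16.1% ± 0.559 of the counts on 7 Feb (SD, n = 5) and 42.7% ± 3.12 on 7 Apr (n = 4). Those that fell held 18.7% ± 0.453 on 7 Feb and 6.42% ± 0.784 on 7 Apr. The shares of 10 Mar were thus nearer to those of April than to those of early February in both sets. The sets were chosen by the level of 10 Mar, which favours such a placement, so it is a description.

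**Figure D2:**
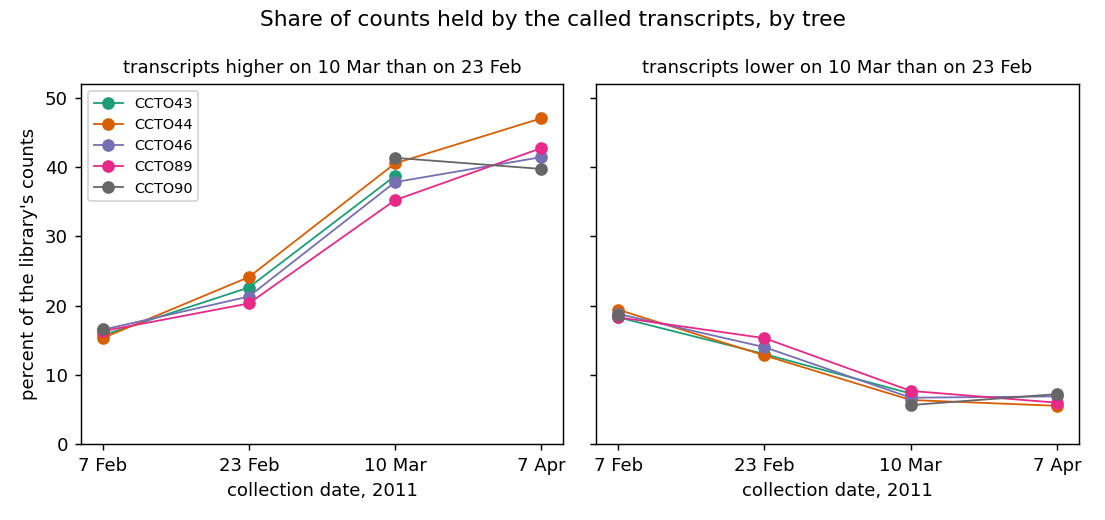
Percent of each library's counts held by the transcripts higher (left) and lower (right) on 10 Mar than on 23 Feb, on 4 collection dates of 2011, 1 point per library and 1 colour per tree, with lines joining successive libraries of a tree. CCTO90 has no library of 23 Feb and CCTO43 none of 7 Apr. In every tree with both dates the left share is higher and the right share lower on 10 Mar than on 23 Feb.

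A small number of transcripts made much of that shift. The rising set gained 16.6 percentage points of the counts between the means of the 2 dates, of which 10 transcripts brought 41.8%, 25 brought more than 50% and 500 brought 84.3%. The largest single part, 14.3% of the gain, belonged to psme_t083272, which held 1.47% to 5.12% of a library's counts on 10 Mar and 0.629% to 1.24% on 23 Feb. The share of the falling set decreased by 7.03 percentage points, which was spread over more transcripts, with 20.2% of the loss in 10 transcripts and 124 needed for 50%. The largest part there, 3.54% of the loss, belonged to psme_t002245.

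Transcripts without a count on 1 date and with a count in every library of the other were rare. Only 5 of the tested transcripts had no count in the 4 libraries of 23 Feb and a count in each of the 5 of 10 Mar, and 109 showed the converse. No transcript was under 0.1 CPM in each library of one date and at 1 CPM or more in each library of the other. Each of the 109 and the 5 was thus under 1 CPM in at least 1 library of the date with counts. The cut of 0.1 CPM lies under the limits for 0 counts given above (0.208 and 0.274 CPM), so these numbers cannot show that a transcript was absent.

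The trees were also compared one by one, within transcripts that had been called from the same libraries, so that agreement among trees is favoured by the call and is a description. In 4422 of the transcripts that rose (82.3%) and 4389 of those that fell (88.5%) all 4 trees with both dates changed in the direction of the call, while 14% of all tested transcripts were higher and 16.6% lower in all 4. The median log2 change of the rising transcripts was 0.715 in CCTO43, 0.877 in CCTO44, 1.05 in CCTO46 and 0.823 in CCTO89. For the falling ones it was -0.69, -0.807, -0.89 and -0.821 in the same trees. CCTO46 thus had the largest and CCTO43 the smallest median in both directions. All of these were smaller in size than the fitted medians of the same sets, 1.13 and -1.07. The fit also draws on CCTO90, and the tree values use log2 levels with a prior count of 2. Why the sizes differ was not tested. Across the 11843 transcripts with a mean of at least 10 CPM, the log2 changes of pairs of trees had Pearson correlations of 0.41 (CCTO43 and CCTO46) to 0.74 (CCTO46 and CCTO89), over 6 pairs. Transcripts are not independent replicates, so these correlations are a description. CCTO90, which has no library of 23 Feb, could be followed only from 7 Feb. From that date to 10 Mar its medians were 1.73 and -1.49, beyond the range of the other 4 trees over the same dates (1.15 to 1.65 and -1.33 to -0.877).

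All 5 libraries of 10 Mar lay above all 4 of 23 Feb for 2121 of the rising transcripts (39.5%) and below them for 2597 of the falling ones (52.4%), by TMM-scaled CPM. Over all tested transcripts the 2 patterns were found in 4.1% and 5.35%. By CPM of the library total they covered 1026 rising (19.1%) and 3713 falling transcripts (74.9%), so this measure also rests on the scaling.

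The change of these 15 days was set beside those of the intervals before and after. Between 7 and 23 Feb, over 16 days, 5434 transcripts (8.92%) differed, 3073 of them higher (5.04%) on 23 Feb and 2361 lower (3.87%). Between 10 Mar and 7 Apr, over 28 days, 2928 (4.81%) differed, 1672 higher (2.74%) on 7 Apr and 1256 lower (2.06%; edgeR quasi-likelihood F test, adjusted p under 0.05). Both counts leaned on single trees. The count between 7 and 23 Feb was 3405 without CCTO43, 1338 without CCTO44, 2165 without CCTO46, 3096 without CCTO89 and 2839 without the 23 Feb library of CCTO44. The count between 10 Mar and 7 Apr was 1414 without CCTO44, 1173 without CCTO46 and 1876 without CCTO89. The transcripts that rose from 23 Feb to 10 Mar had a median log2 change of 0.522 in the interval before, 1.13 in the interval itself and -0.00256 in the one after. Those that fell had medians of -0.282, -1.07 and 0.0719. Each neighbouring interval shares the libraries of 1 date with the one described, so these medians are not independent of the calls.

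The differences between intervals were tested on their own. The change from 23 Feb to 10 Mar differed from that from 7 to 23 Feb in 26 transcripts (0.0427%), 6 of them more positive (0.00985%) and 20 more negative (0.0328%) in the later interval (edgeR quasi-likelihood F test, adjusted p under 0.05). At an unadjusted p under 0.05 the number was 5417 (8.89%), and DESeq2 called 389. The edgeR number ranged over 6 to 45 when 1 tree or 1 library of 10 Mar or 23 Feb was left out, and was 47 without the CCTO43 library of 26 Oct 2011. It was 6 without the 23 Feb library of CCTO46, 45 without the 10 Mar library of CCTO46, 10 without CCTO43 or CCTO89, 13 without CCTO90 or without the 23 Feb library of CCTO44, 16 without the 23 Feb library of CCTO43 or CCTO89, and 17 without CCTO44 or without the 10 Mar library of CCTO90. For nearly all transcripts called between 23 Feb and 10 Mar, a change other than that of the 16 days before was therefore not shown by edgeR. The change from 10 Mar to 7 Apr differed in 2971 transcripts (4.88%), of which 1654 (2.71%) had changed more positively and 1317 (2.16%) more negatively up to 10 Mar than after it. That number was 1147 without CCTO90, 1165 without CCTO46, 1609 without CCTO44, 1608 without the 10 Mar library of CCTO90 and 1907 without that of CCTO46.

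Most of the called transcripts also differed in the same direction between 7 Feb and 7 Apr. That comparison shares the trees but no library with the one described, and 41.6% of all tested transcripts were called in it. It also spans the time from 7 to 23 Feb, so a call there does not show that the change from 23 Feb to 10 Mar lasted. The level of 7 Apr was not tested against that of 23 Feb. Of the 5374 transcripts that rose, 4496 (83.7%) were also higher on 7 Apr than on 7 Feb, where 21.4% of all tested transcripts were higher, and 34 were lower. Of the 4957 that fell, 3825 (77.2%) were also lower, where 20.3% of all tested were lower, and 53 were higher. The median log2 changes over these 2 months were 1.59 for the rising set, -1.21 for the falling set and -0.0265 for all transcripts tested. Seen from the other side, the shared transcripts were 34.5% of the 13023 higher and 31% of the 12352 lower on 7 Apr than on 7 Feb. No call was made between 7 Feb and 7 Apr for 844 of the rising and 1079 of the falling transcripts. The shared rises numbered 2720 without CCTO46 and 2900 without CCTO90. The shared falls numbered 2240 without CCTO44, 2204 without CCTO46, 2468 without CCTO89, 2261 without CCTO90 and 2503 without the 10 Mar library of CCTO90 alone. The shares moved less, with 82.1% to 88.5% of the rises and 70.6% to 79.6% of the falls over all fits that left out a tree or a library of 10 Mar or 23 Feb.

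The direction was also mostly that of summer against winter. On 17 Jun against 6 Jan, a comparison that again shares no library and called 57.9% of all tested, 4142 of the rising transcripts (77.1%) were higher, against 27.3% of all tested, and 4097 of the falling ones (82.7%) were lower, against 30.5%. The opposite direction was found for 205 of the rising and 115 of the falling transcripts. The shared transcripts made up 24.9% of the 16639 higher and 22% of the 18614 lower in June than in January. Both comparisons ran in the direction of March for 3810 of the rising transcripts (70.9%) and 3313 of the falling ones (66.8%). A smaller group, 587 rising and 460 falling transcripts, had the same direction on 7 Apr against 7 Feb but was not called between June and January.

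Over the year, the rising transcripts stood low from November to 7 Feb and high from 10 Mar to June. Their median log2 level, relative to each transcript's mean over 16 dates, was -0.796 on 6 Jan, -0.711 on 7 Feb, -0.273 on 23 Feb, 0.721 on 10 Mar, 0.69 on 7 Apr, 0.74 on 6 May and 0.619 on 17 Jun. It then declined to -0.246 on 26 Oct 2011. The falling transcripts ran the other way up to May, with 0.88 on 6 Jan, 0.398 on 23 Feb, -0.568 on 10 Mar and -0.725 on 6 May. They were at -0.051 on 7 Oct and -0.175 on 26 Oct 2011, still under their mean, against 0.471 on 27 Oct 2010. The values of 23 Feb and 10 Mar are those the calls were made from, and the other dates took no direct part in them. Among the 14 other dates, the highest was 7 Apr, 6 May or 17 Jun for 62.4% of the rising transcripts and 26% of all tested, and 30 Nov, 6 Jan or 7 Feb for 69.3% of the falling transcripts and 29% of all tested. For 1097 of the rising transcripts (20.4%, against 5.99% of all tested) 10 Mar was itself the highest of the 16 dates, and for 593 of the falling ones (12%, against 3.75% of all tested) it was the lowest. The calls favour such transcripts, since they were made from the level of 10 Mar. Dates differ in their trees (5 until 10 Mar apart from 23 Feb, 4 until 17 Aug, 2 on 7 Sep and 3 in October 2011), and such ranks are a description. The values of 26 Oct 2011 include the CCTO43 library, in which 20 transcripts held 48.3% of the counts.

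**Figure D3:**
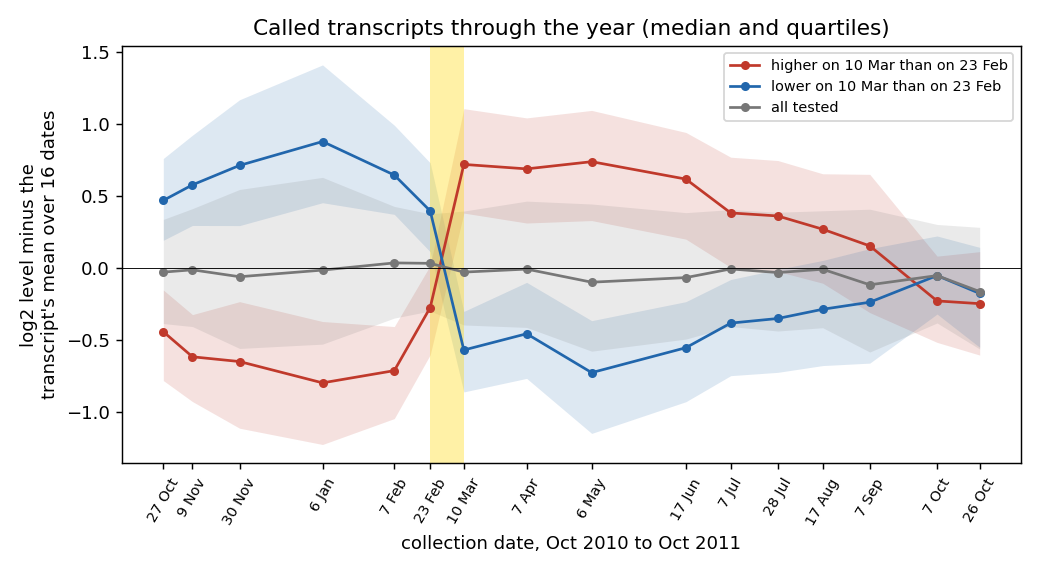
Median (points and lines) and quartiles (bands) of the log2 level relative to each transcript's mean over 16 dates, for the 5374 transcripts higher (red) and the 4957 lower (blue) on 10 Mar than on 23 Feb and for all 60931 tested (grey), by collection date. The yellow band marks 23 Feb to 10 Mar, in which the 2 medians cross. From 10 Mar to 17 Jun the red median stays between 0.619 and 0.74 and the blue between -0.725 and -0.455.

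A score placed each library between midwinter and midsummer. It is the mean log2 CPM of 500 transcripts higher in June minus that of 500 higher in January, scaled to 0 for the mean of 6 Jan and 1 for that of 17 Jun, with the transcripts chosen in the 57 other libraries. On 10 Mar it was 0.631 in CCTO43, 0.669 in CCTO44, 0.848 in CCTO46, 0.75 in CCTO89 and 0.753 in CCTO90, against 0.517, 0.515, 0.558 and 0.45 in the first 4 of these trees on 23 Feb. Every library of 10 Mar lay above every library of 23 Feb. The means were 0.73 ± 0.0843 on 10 Mar (SD, n = 5) and 0.51 ± 0.045 on 23 Feb (n = 4; two-sided exact permutation test, p = 0.0159, adjusted p = 0.0159 over 3 library measures). The permutation test, here and below, treats the 9 libraries as unrelated, although 4 trees have both dates. Within trees the rise was 0.114 to 0.3 in 4 of 4 trees, for which the lowest p of an exact sign-flip test, 0.125, was reached. With 100 transcripts each way the difference of the means was 0.149 (exact permutation p = 0.0317), and the dates overlapped, with CCTO44 at 0.549 on 10 Mar and CCTO46 at 0.554 on 23 Feb. With 2000 each way it was 0.281 (exact permutation p = 0.00794), without overlap. The neighbouring dates averaged 0.263 on 7 Feb and 0.761 on 7 Apr, and 6 May reached 0.966.

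The 2 lists of the score were also read apart. The mean log2 CPM of the 500 summer transcripts was 4.93 to 5.29 on 10 Mar and 3.80 to 4.28 on 23 Feb, with no overlap. For the 500 winter transcripts it was 2.51 to 3.85 on 10 Mar and 3.75 to 4.12 on 23 Feb, with CCTO43 on 10 Mar above CCTO46 on 23 Feb. With 2000 transcripts each way the dates did not overlap in the winter list, at 3.559 to 4.255 on 10 Mar and 4.359 to 4.535 on 23 Feb. The 500 winter transcripts were low on 10 Mar in CCTO46 and CCTO89 (2.51 and 2.91) and higher in CCTO43 and CCTO44 (3.85 and 3.65), with CCTO90 between them (3.24). The difference between these pairs of trees was not tested.

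**Figure D4:**
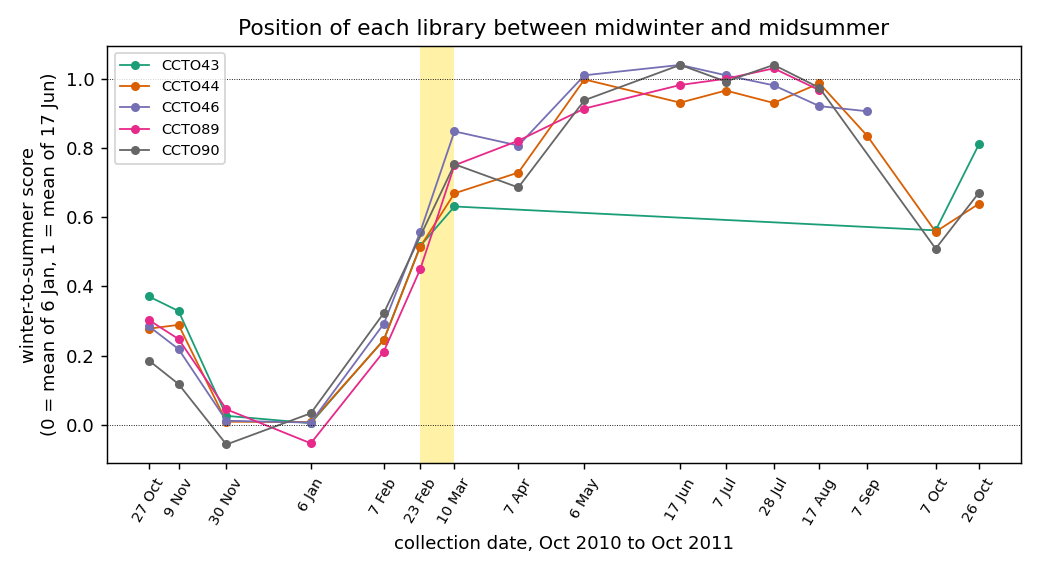
Winter-to-summer score of each of the 66 libraries (0 for the mean of 6 Jan, 1 for the mean of 17 Jun) by collection date, 1 colour per tree, with lines joining the dates at which a tree has a library. The line of CCTO43 spans 10 Mar to 7 Oct without data and that of CCTO90 passes 23 Feb without a library. In the yellow band from 23 Feb to 10 Mar the 4 trees with both dates rise, to 0.631 to 0.848.

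Fewer transcripts held the counts on 10 Mar. In 9924771 counts drawn from each library, 67283, 67687, 62930, 66728 and 57820 transcripts were detected on 10 Mar (CCTO43, CCTO44, CCTO46, CCTO89 and CCTO90), against 74025, 72744, 72634 and 74356 on 23 Feb. Every library of 10 Mar had fewer than every library of 23 Feb, with means of 64490 ± 4180 on 10 Mar (SD, n = 5) and 73440 ± 879 on 23 Feb (n = 4; two-sided exact permutation p = 0.00794, adjusted p = 0.0119, where 5 against 4 libraries can give no smaller p). Among the trees with both dates, 4 of 4 fell (exact sign-flip p = 0.125, the lowest possible with 4 pairs). The difference of the means was -2560 for transcripts with at least 5 counts after drawing (exact permutation p = 0.0238) and -13700 without drawing to 1 depth (exact permutation p = 0.0476). The top 20 transcripts of each library held 16.7% ± 1.92 of its counts on 10 Mar (n = 5) and 10.3% ± 0.833 on 23 Feb (n = 4; exact permutation p = 0.00794, adjusted p = 0.0119), with a rise in 4 of 4 trees and again a sign-flip p of 0.125. Here too the dates did not overlap, with 14.3% to 19.1% on 10 Mar and 9.82% to 11.6% on 23 Feb. In the same libraries 435 to 509 transcripts held 50% of the counts on 10 Mar and 686 to 775 on 23 Feb. A count of detected transcripts at fixed depth falls where a few transcripts take more of the counts, so these measures are not independent of each other. On 7 Apr the detected transcripts averaged 64506 ± 1990 and the top 20 held 21.1% ± 3.5 (n = 4).

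A few transcripts serve as examples, chosen by rule among those with a mean of at least 10 CPM and the same direction in all 4 trees, of which 2127 rose and 1701 fell. The largest rise in CPM was that of psme_t083272, at 54900, 35500, 33000, 15500 and 53500 TMM-scaled CPM on 10 Mar (CCTO43, CCTO44, CCTO46, CCTO89 and CCTO90), against 10500, 11300, 7670 and 5600 on 23 Feb. The dates did not overlap, and the level was 2.77 to 5.2 times as high within the 4 trees (log2 change 2.02, SE 0.37, edgeR adjusted p = 0.00011). It had averaged 4620 ± 631 CPM on 7 Feb (SD, n = 5) and stayed high at 42700 ± 12000 on 7 Apr and 59700 ± 27800 on 17 Jun (n = 4 each), so that March was the first of the high dates. The mean then fell to 10600 ± 3070 on 17 Aug (n = 4) and was 5670 ± 2470 on 7 Oct (n = 3). Between these dates, on 7 Sep, it was 75200 ± 63300 (n = 2). CCTO89 was the lowest tree on 23 Feb and on 10 Mar.

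The largest fall in CPM was that of psme_t002245. It stood at 2460, 2030, 2320, 2940 and 1580 TMM-scaled CPM on 10 Mar and at 3840, 3800, 3670 and 4910 on 23 Feb, in the same order of trees. All libraries of 10 Mar lay below all of 23 Feb, at 0.535 to 0.64 of the earlier level within trees (log2 change -0.84, SE 0.16, edgeR adjusted p = 0.000149). It averaged 1700 ± 479 CPM on 7 Apr (n = 4) and was lower then than on 7 Feb (log2 change -1.49, SE 0.17, edgeR adjusted p = 1.5e-10).

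The largest log2 fall by the rule, which leaves out larger ones without the same direction in all 4 trees or with a mean under 10 CPM, was that of psme_t004105, at 0.67, 3.2, 1.61, 0.396 and 0.487 TMM-scaled CPM on 10 Mar and 7.48, 17.1, 33.5 and 14.1 on 23 Feb. The dates were well apart, with 6 to 62 counts per library on 10 Mar and 259 to 547 on 23 Feb (log2 change -3.58, SE 0.45, edgeR adjusted p = 5.47e-07). Its low level was interrupted on 7 Apr. On that date the transcript was at 25.6, 43.1, 10.7 and 4.24 CPM in CCTO44, CCTO46, CCTO89 and CCTO90, higher than on 10 Mar in each of these trees (log2 change 3.66, SE 0.45, edgeR adjusted p = 2.18e-07). The 2 changes differed by -7.24 on the log2 scale (SE 0.85, edgeR adjusted p = 1.14e-07). Between 7 Feb and 7 Apr no change was called (log2 change -0.8, SE 0.4, edgeR adjusted p = 0.101). The level was low again at 2.97 ± 3.37 CPM on 6 May and 2.66 ± 2.04 on 17 Jun (SD, n = 4 each), and from 7 Jul to 17 Aug it averaged 0.366 to 0.404 CPM. On 17 Jun it was lower than on 6 Jan (log2 change -3.89, SE 0.47, edgeR adjusted p = 9.29e-10).

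The largest log2 rise by the rule, that of psme_t000637, came from 1 tree. It was at 760 TMM-scaled CPM (11805 counts) in CCTO46 on 10 Mar and at 10, 1.03, 1.58 and 5.77 in CCTO43, CCTO44, CCTO89 and CCTO90 on that date, against 2.79 in CCTO46 and 5.75, 0.344 and 0.0848 in CCTO43, CCTO44 and CCTO89 on 23 Feb. The dates overlap, although each of the 4 trees was higher on 10 Mar, by 1.75 to 272 times. The fitted log2 change was 6.39 (SE 1.46, edgeR adjusted p = 0.00164), but 1.32 with an adjusted p of 0.42 without the 10 Mar library of CCTO46 and 2.03 with an adjusted p of 0.177 without that tree. In CCTO46 the transcript was back at 0.362 CPM on 7 Apr, and in CCTO43 it was at 140 CPM (999 counts) on 26 Oct 2011. Its mean of 15.7 CPM over 66 libraries reached the 10 CPM of the rule only through the 10 Mar library of CCTO46.

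**Figure D5:**
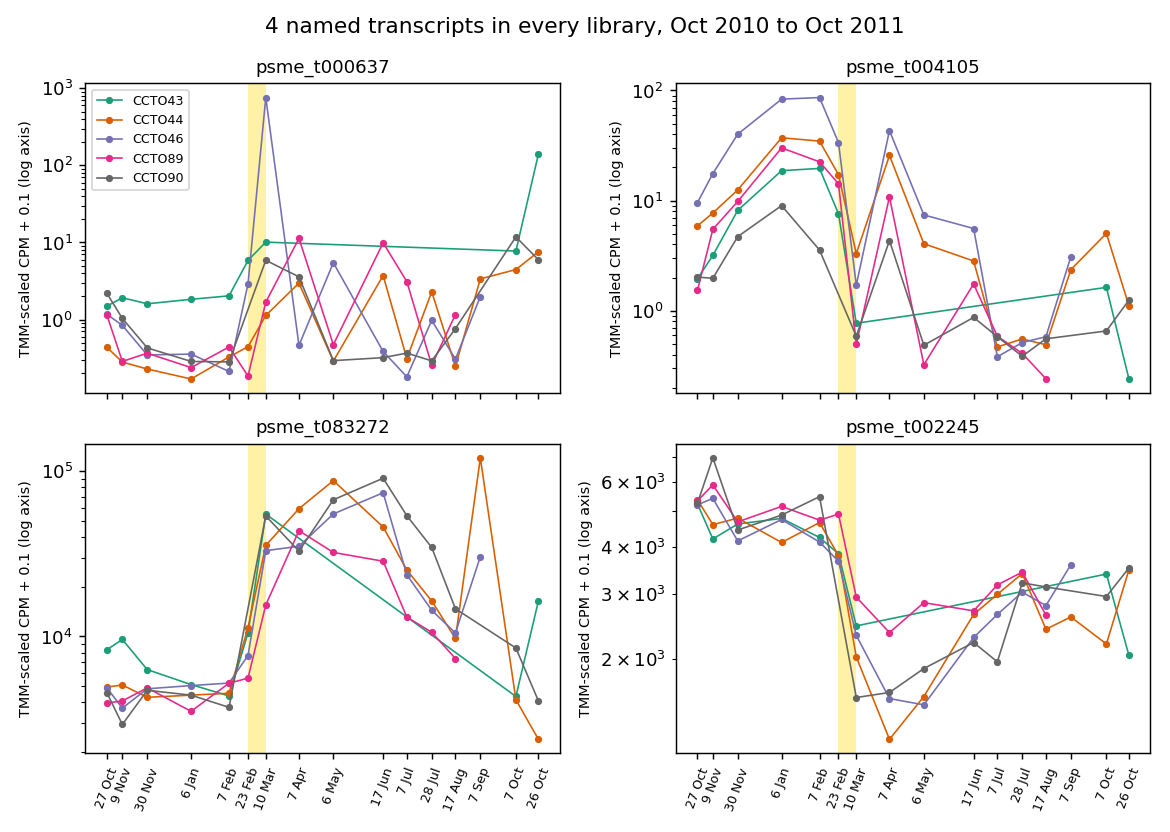
TMM-scaled CPM plus 0.1 (log axes) of the 4 named transcripts in every library from Oct 2010 to Oct 2011, 1 colour per tree, with the 2 that rose on the left and the 2 that fell on the right, and 23 Feb to 10 Mar shaded yellow. Lines join the dates at which a tree has a library, so that of CCTO43 spans 10 Mar to 7 Oct without data. The mean level of psme_t083272 stays high from 10 Mar to 17 Jun and is lower from 7 Jul to 17 Aug. The level of psme_t004105 returns on 7 Apr and is lower again on 6 May, and psme_t000637 peaks in CCTO46 alone on 10 Mar.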

How the data were processed

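Poly(A) RNA libraries that keep the strand (dUTP marking) were, per the labels' protocols, run on a HiSeq 2000. CASAVA 1.8, Bowtie2 2.2.3 and DESeq are named in the submitters' processing notes; for the transcript reference and the counting step the entry is "not given in the sources used here". How reads of near-identical transcripts were split is not known. The authors deposited raw counts per transcript and library, for 199471 transcripts (28846 never counted) and 66 libraries, and these were used unchanged. Normalized and interpolated tables of the same libraries were not used. Columns were matched to libraries by tree and date.

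Transcripts were kept by filterByExpr (grouped by date, minimum count 10). TMM factors, robust quasi-likelihood fits and F tests were made with edgeR 4.0.16 and limma 3.58.1 in R 4.3.3, on all 66 libraries with date and tree as terms, with Benjamini-Hochberg adjustment over 60931 transcripts. Dispersions came from estimateDisp (robust), the first setting run; 2 other dispersion settings were compared after the number of calls was seen to differ from that of an earlier analysis of these data, and the first was kept. SE is the log2 change divided by the square root of F. The pairing by tree follows the labels: the same trees return. It was also checked in the values: the median correlation of date-centred log2 levels, over transcripts of at least 10 CPM, was 0.58 within and -0.14 between trees for the 9 libraries. Log2 levels used a prior count of 2. Detection was compared after drawing counts without replacement (Python 3.11.15, numpy 2.4.6). In simulated counts for 10 Mar against 23 Feb among 60931 transcripts, 14% of 100 transcripts changed 2-fold and 88% of 100 changed 4-fold were recovered, with 3 false calls. Only these transcripts were changed, drawn from those with a mean of at least 1 CPM. All transcripts had 1 common dispersion and no other difference of date or tree. Far fewer changed than were called in the data, so these rates are not those of the tests above.

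Named transcripts had a mean of at least 10 CPM, a call and the same direction in 4 trees; in each direction the largest log2 change and the largest difference of mean CPM were taken. Members, comparisons and measures were chosen with earlier results of these data known. After values were seen, levels were changed to TMM-scaled CPM, a tie in a tree was no longer counted as the same direction (which replaced 1 named transcript), and library totals without scaling were added as an alternative. Prepared gene lists were not used, for want of gene names in the files. The alternatives tried included DESeq2 1.42.0, other scaling, other filters, fewer libraries and no tree term.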

Additional observations from a re-analysis of the deposited data

Results flagged for a closer look

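Of 20 groups of values (10 measures on each of the 2 dates), 4 held a library far from the rest of its group. The rule flags about 1 in 20 groups of independent, normally distributed values. Many groups here were levels or shares of transcripts chosen from the same libraries, so the 4 cannot be set against that rate. The total of CCTO90 on 10 Mar, 37373284 counts, was the largest of all 66 libraries. Its gap to the next library of that date was 0.71 of the range, just at the limit of the rule (0.71). The level of psme_t000637 in CCTO46 on 10 Mar was 760 CPM, with the next highest library at 10. The share of the 20 most abundant transcripts in CCTO43 on 23 Feb was 11.6%, while the other 3 libraries of that date had 9.82% to 10%. The level of psme_t002245 in CCTO89 on 23 Feb was 4910 CPM, against 3670 to 3840 in the other 3.

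Changes that differed between intervals were found by tests of the difference itself (edgeR quasi-likelihood F test, adjusted p under 0.05). The change from 23 Feb to 10 Mar differed from that of 7 to 23 Feb in 26 transcripts (6 to 45 without 1 tree or 1 library of the 2 dates, and 47 without the CCTO43 library of 26 Oct 2011) and from that of 10 Mar to 7 Apr in 2971 (1147 to 4208 without 1 tree or 1 library of the 2 dates). For psme_t000637 the change up to 10 Mar exceeded that after it by 10.46 on the log2 scale (SE 2.24, edgeR adjusted p = 0.00274), a value that includes the CCTO46 library of 10 Mar. For psme_t004105 the difference was -7.24 (SE 0.85, edgeR adjusted p = 1.14e-07), with all 4 trees of 7 Apr above their own level of 10 Mar.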

How the results depend on the processing

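Over the alternatives run, no log2 change of a named transcript and no difference in a library measure changed its sign. The counts of calls carry no sign, and which direction had more of them did change. In the reported fit more transcripts were higher than lower. With DESeq2, RLE factors, upper-quartile factors or library totals alone, among other settings, more were lower. Without a filter on low counts, which tests 170625 transcripts, 3359 were higher and 3286 lower on 10 Mar than on 23 Feb. In that setting 2908 changed from 7 to 23 Feb and 1615 from 10 Mar to 7 Apr, 1669 changed otherwise up to 10 Mar than after it, and 2766 rises and 2351 falls were also called on 7 Apr against 7 Feb. With library totals alone, added after seeing the data, 2404 were higher and 9382 lower, and 1895 and 7910 of these were called likewise on 7 Apr against 7 Feb. Fits of only the 9 libraries or of the 4 trees with both dates test fewer transcripts (35349 and 33735) and gave 3635 and 3595 higher and 2717 and 2751 lower ones, so that 57.2% and 56.6% of the calls were higher, against 52%. Changes of at least 2-fold in these fits numbered 1908 and 1829 higher and 1006 and 989 lower. The log2 change of psme_t000637 was 3.57 (edgeR adjusted p = 0.186) and 3.58 (edgeR adjusted p = 0.183) in these 2 fits.

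Without the tree as replicate block the paired trees were treated as unrelated, and 2433 transcripts were higher and 2412 lower on 10 Mar. In the 2 neighbouring intervals 2051 and 1023 changed, 10 and 891 differed between intervals, and 2124 rises and 1850 falls were also called on 7 Apr against 7 Feb. The 26 transcripts whose change differed from that of 7 to 23 Feb were 389 with DESeq2, 53 with a mean of at least 1 CPM, 50 with 1 common dispersion, 47 without the CCTO43 library of 26 Oct 2011 and 62 without the 17 Aug libraries of CCTO44 and CCTO46, which had each resembled the other tree. With 1 common dispersion 5762 were higher and 5363 lower on 10 Mar, and with a trended one 5355 and 4948, both added after seeing the data; neither gave the number of an earlier analysis of these data, and the cause was not tested. DESeq2 gave 6001 higher and 6374 lower, RLE factors 5079 and 5254, and upper-quartile factors 4553 and 5822.

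Leaving out each tree or each library of the 2 dates gave 3304 to 6080 higher and 2931 to 5551 lower transcripts. It gave 1338 (without CCTO44) to 5786 for 7 to 23 Feb, 1173 (without CCTO46) to 3027 for 10 Mar to 7 Apr, 6 to 45 and 1147 to 4208 for the differences between intervals, and 2720 to 5097 rises and 2204 to 4242 falls also called on 7 Apr against 7 Feb. Detected transcripts differed by -9750 to -7280, the top 20 by 5.79 to 7 percentage points and the score by 0.191 to 0.245. Depth limits the rarest transcripts most: under 1 CPM nearly all calls were changes of at least 2-fold. Why each setting moved a count was not tested, apart from the number of transcripts or libraries in the fit.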
